A study of Homo sapiens with 21 samples.

Results

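The cytosolic ribosomal protein genes were taken by name from 19974 protein-coding genes on chromosomes 1 to 22 and X of the RefSeq gene table. A gene was a member when its symbol was RPSA, RPLP0, RPLP1 or RPLP2, or began with RPL or RPS and a number with no K after it, which leaves out the ribosomal S6 kinases. The rule found 89 genes. They comprise 77 genes for core proteins of the ribosome (31 of the small subunit, 43 of the large subunit and 3 of the large subunit's stalk), 8 paralogues, 3 read-through genes that run from a ribosomal protein gene into its neighbour, and RPS19BP1, which encodes a protein that binds a ribosomal protein. FAU and RACK1 also encode ribosomal proteins but fall outside the naming rule.

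Each cytosolic ribosome holds a single copy of most of these proteins, so their genes are transcribed at high and similar rates in growing cells. Their promoters are short and typically begin transcription at a C within a run of pyrimidines, the terminal oligopyrimidine tract, through which mTOR and LARP1 control translation of the mRNAs. Tumour cells with active growth factor signalling make many ribosomes, and loss of a single copy of some of these genes causes Diamond-Blackfan anaemia.

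FGFR1 is a fibroblast growth factor receptor that usually sits at the cell surface. It was mapped here on chromatin by ChIP-seq in CAMA1, a breast cancer line that the labels give as ER+ with FGFR1 amplified. All 14 immunoprecipitated libraries came from this 1 line at under 10 passages, with 2 libraries per group. The groups were untransfected cells immunoprecipitated for FGFR1, for H3K4me3 (a histone mark of promoters), for H3K27ac (a histone mark found at promoters and enhancers in use), for RNA polymerase II with an antibody to the Rpb1 C-terminal domain that is labelled Pol II S5P (polymerase at the start of transcription), and for the pioneer factor FOXA1, and FGFR1 again in cells transfected with control siRNA (siNT) or with siRNA to FOXA1 (siFOXA1). The cells of every group had been kept for 48 h in medium without estradiol, so no group shows the genes under estradiol, and transfected cells were collected 72 h after transfection. The 7 input libraries and the FOXA1 level after the knockdown were not analysed here, and nothing in the labels tells separate cultures from repeat libraries, so the spread between 2 lists may be technical.

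A member was counted in a peak list when a peak lay within 1 kb of either end of the gene, and in a group when both lists had such a peak. The lists held 5341 and 13135 FGFR1 peaks in untransfected cells, 6007 and 6594 with siNT, and 4332 and 5056 with siFOXA1, on single genome-wide backgrounds of 3.40 and 3.50, 2.19 and 2.19, and 2.11 and 2.20 fragments per position. The other lists held 12267 to 154358 peaks. Luminal epithelial markers carried Pol II S5P in both lists at 9 of 10 genes, against 0 of 8 basal or mesenchymal and 0 of 6 haematopoietic markers. The share of all protein-coding genes with Pol II S5P in both lists was 38.8%. A set of 4 markers of nerve or liver cells was less clear-cut. Pol II S5P was found at 2 of these 4 genes in list 1 and at 0 in list 2. Fold enrichments are the authors' own values against background and are used here only to describe and rank peaks within a list.

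Of the 89 members, 70 had an annotated start in the RefSeq promoter table (GRCh38.p14), among them 62 core members. Those not matched there include RPL5, RPL39L, RPL37, RPS10-NUDT3, RPS20, RPL7, RPL30, RPL8, RPL3L, RPS2, RPS15A, RPL23A, RPL23 and RPS19BP1. The promoters of 9 members are shown because the results turn on them. RPL10A and RPS3 were the only members with FGFR1 in all 6 FGFR1 lists, RPL27, RPS14, RPS15 and RPL26 had FGFR1 in both siNT lists, and RPL35A, RPS25 and RPL29 had it in none of the 6. Each line runs 5′ to 3′ on the gene's strand, from 130 bases before the annotated start to the first 20 transcribed bases. Capitals mark a pyrimidine tract at the start and matches to the motifs named after the sequences.
RPL10A (chr6:35468271-35468420, plus strand): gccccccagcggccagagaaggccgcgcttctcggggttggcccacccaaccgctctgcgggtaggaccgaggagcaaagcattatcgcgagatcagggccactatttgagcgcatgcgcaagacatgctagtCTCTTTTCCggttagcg
RPS3 (chr11:75399388-75399537, plus strand): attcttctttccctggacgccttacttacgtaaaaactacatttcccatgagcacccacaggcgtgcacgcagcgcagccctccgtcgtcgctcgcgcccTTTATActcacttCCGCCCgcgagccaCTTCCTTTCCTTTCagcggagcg
RPL27 (chr17:42998289-42998438, plus strand): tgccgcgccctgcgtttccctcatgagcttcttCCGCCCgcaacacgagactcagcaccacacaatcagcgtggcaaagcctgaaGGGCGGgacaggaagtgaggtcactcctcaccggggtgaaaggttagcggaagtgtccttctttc
RPS14 (chr5:150449720-150449869, minus strand): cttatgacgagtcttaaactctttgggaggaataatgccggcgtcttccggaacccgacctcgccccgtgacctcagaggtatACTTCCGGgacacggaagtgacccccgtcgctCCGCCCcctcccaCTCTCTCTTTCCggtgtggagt
RPS15 (chr19:1438266-1438415, plus strand): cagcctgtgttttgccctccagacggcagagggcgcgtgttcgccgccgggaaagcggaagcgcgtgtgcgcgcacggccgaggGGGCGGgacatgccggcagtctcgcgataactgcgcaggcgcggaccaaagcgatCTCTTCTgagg
RPL26 (chr17:8383174-8383323, minus strand): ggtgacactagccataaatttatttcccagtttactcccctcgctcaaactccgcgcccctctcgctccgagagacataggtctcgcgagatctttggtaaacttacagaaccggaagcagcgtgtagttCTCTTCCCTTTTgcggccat
RPL35A (chr3:197950060-197950209, plus strand): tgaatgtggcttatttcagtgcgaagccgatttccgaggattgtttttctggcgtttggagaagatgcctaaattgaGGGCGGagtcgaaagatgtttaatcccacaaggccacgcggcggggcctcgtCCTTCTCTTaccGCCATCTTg
RPS25 (chr11:119018324-119018473, minus strand): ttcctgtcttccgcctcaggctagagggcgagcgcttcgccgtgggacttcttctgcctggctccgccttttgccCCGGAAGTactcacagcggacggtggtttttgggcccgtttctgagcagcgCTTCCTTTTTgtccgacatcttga
RPL29 (chr3:51995876-51996025, minus strand): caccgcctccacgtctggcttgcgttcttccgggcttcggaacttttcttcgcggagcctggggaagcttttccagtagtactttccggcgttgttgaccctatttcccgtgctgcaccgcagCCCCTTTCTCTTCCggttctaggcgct

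A pyrimidine tract, counted as a C within 10 bases of the annotated start followed by at least 5 pyrimidines on the gene's strand, was found at 50 of the 62 core members (80.6%) and at 20.9% of all 15812 promoters of the table. Of the 9 promoters shown, only that of RPL27 held no tract by this rule. By FGFR1 the shares were close and were not tested: 31 of 37 core members with FGFR1 at the start in both untransfected lists had it (83.8%), and 19 of the other 25 (76.0%). The tracts of the 3 genes without FGFR1 were 9 (RPL35A), 10 (RPS25) and 14 (RPL29) bases long, and those of RPL10A and RPS3 were 9 and 14.

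Letters of 6 motifs were searched on both strands in windows of 300 bases, 250 before to 50 after the start. The ETS or GABP letters CCGGAAGT were in 9 of 62 core promoters (14.5%, against 6.17% of all promoters). Of these 9, 8 were among the 37 core members with FGFR1 at the start (21.6%) and 1 among the other 25 (4.00%); that 1 is RPS25. The YY1-like letters AAGATGGC were in 6 (9.68%, against 3.86%), the TATA box TATAAA in 5 (8.06%, against 9.75%), the SP1 or KLF letters GGGCGG in 34 (54.8%, against 58.3%) and the E box CACGTG in 3 (4.84%, against 8.82%). The forkhead letters TGTTTAC were in none of the 62, and in 2.68% of all promoters. The single core promoter with AAGATGGC among the 25 is that of RPL35A. Every other motif with matches also had a higher share among the 37 core members with FGFR1 than among the other 25. The shares were 13.5% against 4.00% for AAGATGGC, 10.8% against 4.00% for TATAAA, 59.5% against 48.0% for GGGCGG and 8.11% against 0 for CACGTG. None of these differences was tested. These matches describe letters in a window and are neither sites nor causes, and matches to different motifs were counted separately where they overlapped. Median GC content was 59.0% in the core promoters and 62.7% in all. It was 60.3% in the 37 core promoters with FGFR1 at the start and 57.3% in the other 25.

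In untransfected cells FGFR1 lay at most ribosomal protein genes. List 1 had a peak at 53 of 89 members (59.6%, against 19.9% of all protein-coding genes) and list 2 at 84 (94.4%, against 41.2%). All 53 members of list 1 were also in list 2, so 53 had FGFR1 in both lists, against 19.8% of all genes. Against the 13264 genes with H3K4me3 in both lists the shares were 60.9% of members and 29.7% of genes. Against the 7723 genes that carried H3K4me3 together with Pol II S5P in both lists they were 61.6% and 47.2%. Scored at the annotated start alone, 39 of 70 members had FGFR1 in both lists, against 20.9% of all genes with such a start.

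**Figure D1:**
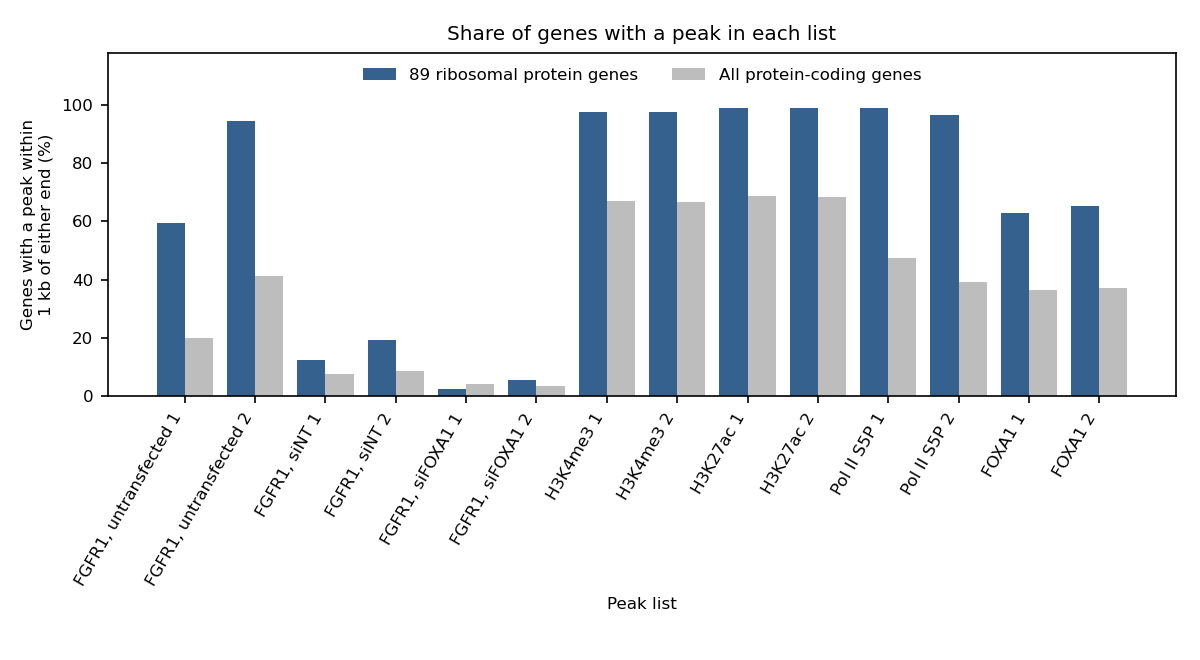
Percentage of the 89 ribosomal protein genes (blue) and of 19974 protein-coding genes (grey) with a peak within 1 kb of either end, for each of the 14 peak lists. The members' bar is the taller one in every list except siFOXA1 list 1, where it stands at 2.25% against 4.24%.

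Marks of active promoters were found at nearly every member. H3K4me3 was found at 87 of 89 members in each list (67.0% and 66.6% of all genes) and at the same number in both (66.4%). The 2 without it near an end were RPL10L and RPL26L1. RPL26L1 had H3K4me3 at 103 and 104 at its annotated starts, which lie inside its span. H3K27ac was found at 88 in each list (68.7% and 68.4%) and in both (67.4%), with RPL10L the one without. Pol II S5P was found at 88 members in list 1 (47.3%) and 86 in list 2 (39.2%), with 86 in both (38.8%). All 77 core members had both histone marks in both lists, and RPL29 was the only core member that lacked Pol II S5P in 1 of its lists. H3K4me3, H3K27ac and Pol II S5P were together in both lists at 86 members, against 38.7% of all genes. Core members also had stronger and wider peaks of these marks at the median than all genes with a peak. H3K4me3 peaks were 3107 and 3127 bp wide, against 2322.5 and 2273 bp. H3K27ac fold enrichment was 37.4 and 41.1, against 27.8 and 29.8, and that of Pol II S5P was 14.8 and 10.8, against 8.68 and 7.67. FOXA1 was found at 56 and 58 members (36.4% and 37.2% of all genes) and at 49 in both lists (32.4%).

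**Figure D2:**
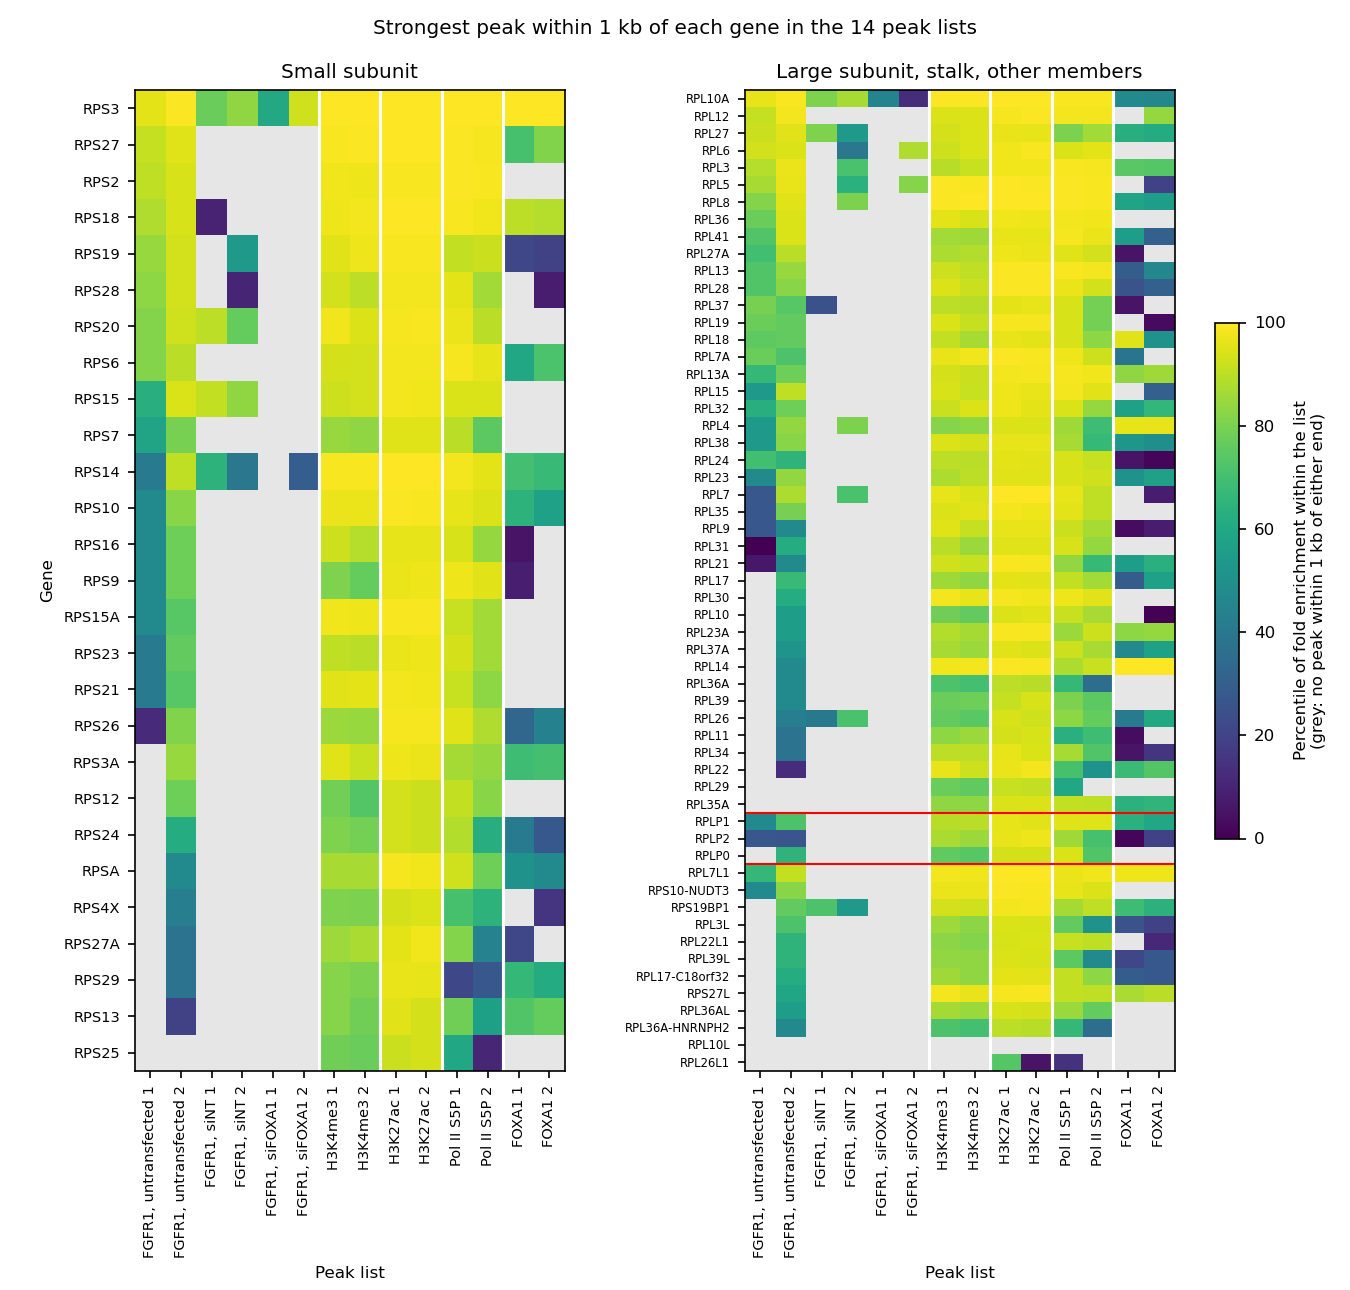
Each row is 1 of 84 ribosomal protein genes and each column a peak list; colour gives the percentile, within its list, of the fold enrichment of the strongest peak within 1 kb of either end, and grey means no such peak. Rows are ordered by FGFR1 in untransfected cells within the small subunit, large subunit, stalk and other members (red lines); the histone marks and Pol II S5P fill nearly every row, while FGFR1 after siNT or siFOXA1 is scattered over few.

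In untransfected cells FGFR1 peaks at the core members had a higher median fold enrichment than those at all genes. In list 1 their median fold enrichment was 6.14 (3.41 to 13.0) over 51 distinct peaks, against 5.46 over the 3292 distinct peaks at all genes, and their median percentile in the list was 66.6. In list 2 it was 7.55 (3.77 to 21.3) over 74 distinct peaks, against 6.0, with a median percentile of 78.0. Peaks at all genes had median percentiles of 53.6 in list 1 and 62.1 in list 2. The highest fold enrichments at any gene in these 2 lists were 37.3 and 43.5. RPL10A and RPS3 came nearest among the members, at the 96.5 and 96.1 percentiles of list 1 and the 98.8 and 99.3 percentiles of list 2. No test was made of these strengths.

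Among the small subunit genes, 21 of 31 had FGFR1 in both untransfected lists, 9 in list 2 only, and RPS25 in neither. RPS3, whose protein lies at the mRNA entry channel, led with fold enrichments of 12.5 and 21.3. Its strongest peaks of H3K4me3, H3K27ac and FOXA1 were also above the 99.9 percentile of both their lists. Within 500 kb of RPS3 lay 84 and 225 FGFR1 peaks, against medians of 2 and 6 over all genes. The part of this in its rank was not tested. RPS27 followed with 9.55 and 12.9, RPS2 with 9.33 and 12.0, and RPS18 with 8.64 and 12.0. These 4 genes were also high for Pol II S5P, with 41.7 and 29.5 at RPS3, 27.4 and 20.4 at RPS27, 26.7 and 24.2 at RPS2 and 23.7 and 18.2 at RPS18. RPS6, the substrate of the S6 kinases, had FGFR1 at 7.51 and 9.99. RPSA, known also as the laminin receptor, had it in list 2 only, at 5.11, as did, among others, RPS27A, RPS3A, RPS12, RPS24, RPS13, RPS29 and RPS4X.

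Among the large subunit genes, 28 of 43 had FGFR1 in both untransfected lists, 13 in list 2 only, and RPL29 and RPL35A in neither. RPL10A, a protein near the exit site for tRNA, had fold enrichments of 13.0 and 19.3, the highest mean percentile of all members. RPL12, at the base of the stalk, had 9.55 and 17.8. RPL27 had 10.0 and 13.5, and RPL3, beside the peptidyl transferase centre, 8.87 and 15.3. All 4 summits of RPL12 and RPL3 lay within 39 bp of the annotated start, while those of RPL27 lay at -163 and -150 bp, upstream of it. The span of RPL27 begins upstream of that start, at 42998273 where the annotated start is 42998419, so this offset depends on the start used. RPL5 and RPL11 bind MDM2 together with the 5S RNA when ribosome assembly stalls, and they differed: RPL5 had 8.42 and 14.7, and RPL11 had no peak in list 1 and 4.66 in list 2. RPL23, another binder of MDM2, had 5.23 and 8.44, and RPL10, one of the last proteins to join the subunit, had 5.55 in list 2 only.

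The stalk proteins recruit elongation factors. RPLP1 had FGFR1 at 5.23 and 6.88 and RPLP2 at 4.55 and 4.22, while RPLP0, which anchors them, had it in list 2 only at 6.22. All 3 carried Pol II S5P in both lists, at 15.3 and 8.34 for RPLP0, 15.9 and 14.4 for RPLP1 and 11.3 and 8.12 for RPLP2. Each of their FGFR1 peaks lay below the core median of its list.

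RPL6 was among the first 10 members by FGFR1 strength through peaks away from its annotated start. These peaks, at 10.5 and 12.2 (chr12:112418710-112419199 and chr12:112418644-112419426), lay at the upstream end of the gene's span, which adjoins PTPN11, and that of list 1 lay nearer to PTPN11. At the annotated start itself RPL6 had no FGFR1 peak in list 1 and one of 4.00 in list 2. The strongest peak of RPL4 lay nearer to an end of SNAPC5 in both lists, and that of RPL7 nearer to RDH10. In all, 10 members had a strongest peak nearer to another gene's end in at least 1 list, and 47 of the other 79 members had FGFR1 in both lists. Where another gene's end lay within 1 kb, 22 of 29 core members had FGFR1 in both lists (75.9%), and where none did, 29 of 48 (60.4%). The same split was not made over all genes, so it is not read as a trait of these genes.

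Only 5 members had no FGFR1 peak in any of the 6 lists (5.62%, against 58.0% of all genes). They were RPL35A, RPS25, RPL29 and the paralogues RPL10L and RPL26L1, of which RPL26L1 has its annotated starts away from the ends of its span. RPL35A, a gene of Diamond-Blackfan anaemia, had H3K4me3 at 90.4 and 91.9, H3K27ac at 27.1 and 30.2 and Pol II S5P at 13.1 and 11.7. RPS25, used in initiation on some viral mRNAs, had H3K4me3 at 80.8 and 81.7, H3K27ac at 21.1 and 26.6 and Pol II S5P at 6.70 and 4.33. RPL29 had H3K4me3 at 78.9 and 78.6, H3K27ac at 19.6 and 20.3 and Pol II S5P at 6.70 in list 1 only. RPL35A lay within the Pol II S5P range of members with FGFR1 in both lists, 10.0 to 41.7 and 7.67 to 29.5, and RPS25 and RPL29 lay below it.

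Core members with FGFR1 in both lists had higher median Pol II S5P. Members with FGFR1 in both lists (51) had median Pol II S5P fold enrichments of 15.9 and 12.4, those with FGFR1 in list 2 only (23) had 11.8 and 8.79, and the 3 with none had 6.70 and, over 2 of them, 8.01. The ranges overlapped: 10.0 to 41.7 in Pol II S5P list 1 for the first group and 4.27 to 18.8 for the second. Over the 74 core members with an FGFR1 peak in list 2, the Spearman correlation of FGFR1 with Pol II S5P was 0.67 and 0.71 in the 2 Pol II S5P lists, with H3K27ac 0.52 and 0.53, and with H3K4me3 0.52 and 0.55. With FOXA1, over the 49 and 50 members that had both peaks, it was 0.23 and 0.10. The same correlations over all genes with both peaks were 0.53 and 0.50 for Pol II S5P and 0.49 and 0.49 for H3K27ac. For H3K4me3 the correlations over all genes were 0.39 and 0.39, and for FOXA1 0.06 and 0.06. They describe genes within the same libraries, which share cells, copy number and fragment depth, and carry no test.

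**Figure D3:**
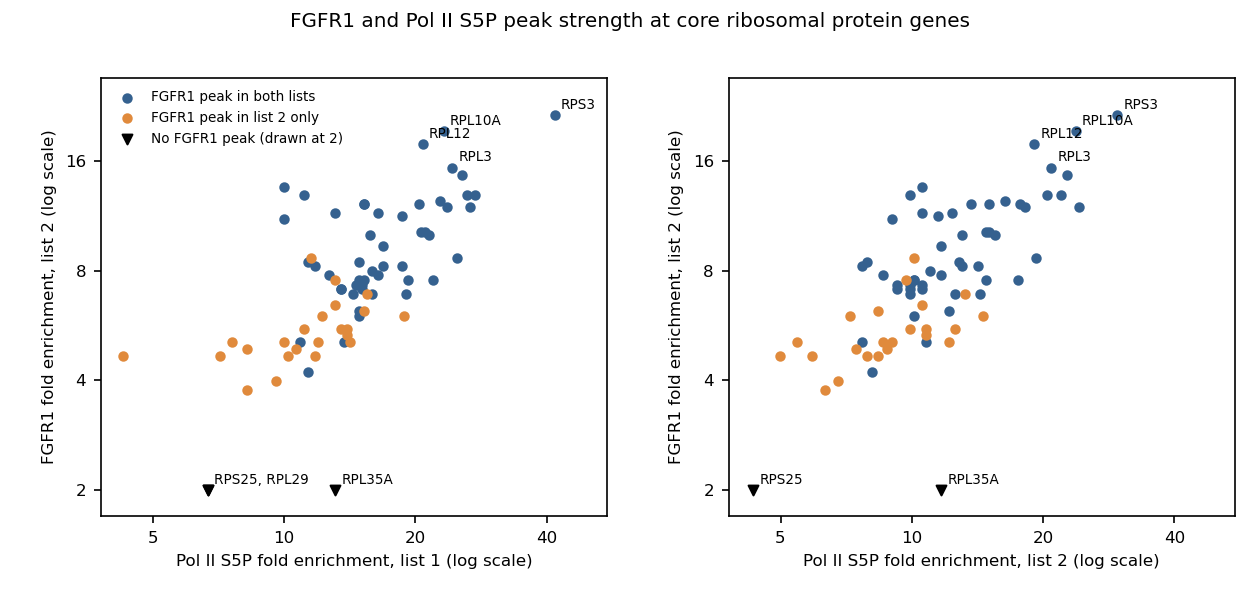
FGFR1 fold enrichment in untransfected list 2 against Pol II S5P fold enrichment in list 1 (left) and list 2 (right), on log axes; each point is a core ribosomal protein gene, blue with FGFR1 in both lists and orange with FGFR1 in list 2 only. Triangles drawn at 2 have no FGFR1 peak; RPS3, RPL10A, RPL12 and RPL3 lie at the upper right, and the orange points lie mostly at the lower left.

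Median summit positions differed between the factors along the core promoters. At core members with an annotated start the median FGFR1 summit lay 4 bp downstream of it in list 1 (37 genes) and 13 bp downstream in list 2 (59 genes). The summit was within 200 bp of the start at 97.3% and 94.9% of these genes. Over all genes the medians were -37.5 and -29.0 bp, upstream of the start, with 77.5% and 78.6% within 200 bp. Pol II S5P summits lay at medians of 36.5 and 34.0 bp downstream, H3K27ac summits at 201 and 197.5 bp, and H3K4me3 summits at 224 and 228 bp. FOXA1 summits lay upstream, at medians of -102 and -128.5 bp, close to the -106 bp of all genes in both lists. By these medians FGFR1 sat between FOXA1 and Pol II S5P, with single genes on either side. The same order held over all genes, with Pol II S5P at medians of 33 and 29 bp. Over all genes H3K27ac lay at medians of 164 and 162 bp and H3K4me3 at 196 and 195 bp.

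**Figure D4:**
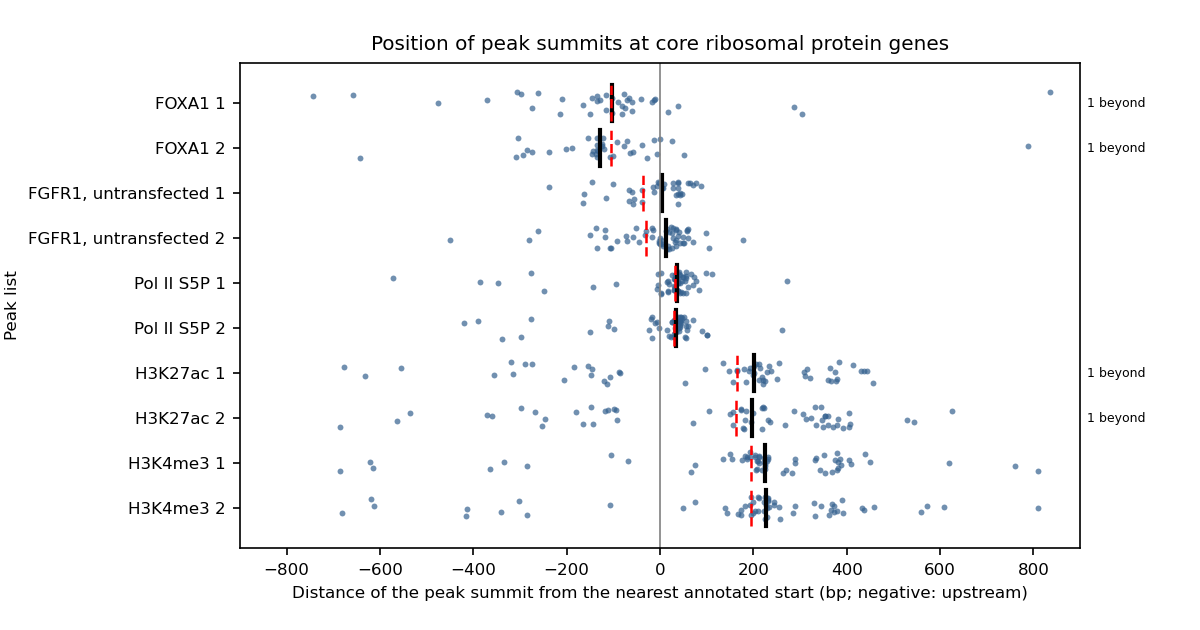
Distance of the peak summit from the nearest annotated start, in bp with negative values upstream, for each core ribosomal protein gene with a peak at its start (points) in 10 lists; black bars give the members' median and dashed red bars the median of all genes. FGFR1 medians of 4 and 13 bp lie between those of FOXA1 (-102 and -128.5 bp) and Pol II S5P (36.5 and 34.0 bp); the words at the right edge count summits outside the axis.

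FOXA1 was present at about as many members as at other active genes. Among genes with H3K4me3 and Pol II S5P in both lists, 57.0% of members and 53.8% of all genes had FOXA1 in both. Its peaks at core members were near the middle of the lists, with median fold enrichments of 6.78 and 7.12 (percentiles 52.3 and 57.1), against 6.68 and 6.56 at all genes. The strongest were at the 3′ ends: RPS3 had FOXA1 at 74.1 and 68.4 and RPL14 at 72.6 and 65.0. At their annotated starts the values were 9.18 and 10.7 for RPS3 and 9.18 and 9.37 for RPL14. At annotated starts 34 of 62 core members had FOXA1 in both lists (54.8%, against 30.6% of all genes). RPL4 had the highest values there, 38.2 and 38.6, followed in list 2 by RPS18 with 24.0 and 21.0. RPL18 had 35.0 in list 1, from a peak with its summit 1556 bp downstream of the start. Its value of 3.75 in list 2 came from a different peak, with its summit at -135 bp.

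FGFR1 in both untransfected lists was found at 29 of the 43 core members with FOXA1 in both lists (67.4%). It was found at 11 of the 15 with FOXA1 in 1 list (73.3%) and at 11 of the 19 with FOXA1 in neither (57.9%). The same shares were not computed over all genes. Restricted to genes with H3K4me3 and Pol II S5P, 30 of 49 members with FOXA1 in both lists had FGFR1 (61.2%, against 52.3% of all such genes), and 12 of 21 members with FOXA1 in neither did (57.1%, against 39.7%). These differences were not tested.

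After transfection FGFR1 was found at few members. The siNT lists had a peak at 11 and 17 of 89 (7.55% and 8.65% of all genes), with 9 in both (10.1%, against 5.15%) and 19 in at least 1 (21.3%, against 11.1%). All 19 also had FGFR1 in untransfected list 2, which held 84 of the 89 members (94.4%, against 41.2% of all genes). The siFOXA1 lists had a peak at 2 and 5 members (4.24% and 3.58% of all genes), with 2 in both (2.25%, against 2.24%) and 5 in at least 1 (5.62%, against 5.59%). Among genes with H3K4me3 and Pol II S5P the members' shares were at or below those of all genes, 10.5% against 11.5% after siNT and 2.33% against 4.91% after siFOXA1. At annotated starts 6 of 70 members had FGFR1 in both siNT lists (4.71% of all genes) and 2 in both siFOXA1 lists (1.87%). The 2 counts after siNT lay above both counts after siFOXA1, and 2 against 2 lists cannot give an exact two-sided permutation p below 0.333.

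The siNT lists had lower backgrounds than the untransfected lists (2.19 and 2.19 fragments against 3.40 and 3.50). With all FGFR1 lists cut to the 4332 strongest peaks, the length of the shortest, FGFR1 was in both lists at 47 members in untransfected cells, 9 after siNT and 1 after siFOXA1, against 13.8%, 4.36% and 2.20% of all genes. The part of depth, transfection and library preparation in this difference was not tested.

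The 9 members with FGFR1 in both siNT lists included RPL10A, RPS3, RPL27, RPS20, RPS15, RPS14, RPL26 and RPS19BP1. Of the 9, 2 had FGFR1 in both siFOXA1 lists (22.2%, against 38.4% of all genes with FGFR1 in both siNT lists) and 6 in neither (66.7%, against 33.9%). FGFR1 in both untransfected lists was found at 7 of the 9 (77.8%, against 90.5%), and RPL26 and RPS19BP1 had it in list 2 only. All 5 members with a siFOXA1 peak also had a siNT peak, so none had FGFR1 after siFOXA1 alone (0, against 19.0% of the genes with a siFOXA1 peak).

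RPL10A (chr6:35468401-35470780) had its FGFR1 peak at the start in every list, with 56 and 86 fragments at the summit without transfection, 19 and 22 with siNT and 14 and 12 with siFOXA1, which are fold enrichments of 13.0 and 19.3, 6.28 and 7.21, and 4.82 and 4.06. Within their lists these peaks stood at the 80.5 and 87.1 percentiles with siNT and at the 45.2 and 13.2 percentiles with siFOXA1. The lists were called apart, and the difference between siNT and siFOXA1 at this gene was not tested. RPL10A had FGFR1 in all 6 lists, as did RPS3 and 1.94% of all genes.

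RPS3 (chr11:75399518-75422302) had overlapping values after siNT and siFOXA1. Its strongest FGFR1 peak had 54 and 95 fragments without transfection, 18 and 20 with siNT and 15 and 23 with siFOXA1, fold enrichments of 12.5 and 21.3, 5.96 and 6.58, and 5.15 and 7.50. In siFOXA1 list 1 that peak lay at the 3′ end, and the one at the start had 4.50. The summits at its start lay 71 and 38 bp downstream of it in untransfected cells and 224 and 469 bp downstream after siNT. RPS3 lies in a stretch crowded with FGFR1 peaks, with 84 and 225 within 500 kb of the gene without transfection, 282 and 300 with siNT and 279 and 353 with siFOXA1, against medians over all genes of 2 and 6, 1 and 1, and 0 and 0. The part of that crowding in its calls was not tested, and without RPS3 only RPL10A had FGFR1 in both siFOXA1 lists.

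The siNT peaks of RPS15, RPL27 and RPS20 had no counterpart after siFOXA1. RPS15 (chr19:1438396-1440495) had fold enrichments of 5.91 and 12.2 in untransfected cells and 8.47 and 6.58 after siNT, with no peak after siFOXA1. RPL27 (chr17:42998273-43002959) had 6.28 and 5.01 after siNT and no peak after siFOXA1. RPS20, of the head of the small subunit, had 7.51 and 11.3 in untransfected cells and 8.16 and 5.95 after siNT. Among these 3 genes the siNT summits had 15 to 26 fragments, where the weakest peaks of the siFOXA1 lists had 10.

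RPL26 (chr17:8377516-8383193), of the large subunit, had 4.71 and 5.64 after siNT, 4.89 in untransfected list 2 and no peak in untransfected list 1. RPS14 (chr5:150442635-150449739), the gene whose loss marks the 5q- syndrome, had 5.0 and 10.2 in untransfected cells and 5.34 and 4.70 after siNT. The 2 siNT peaks did not overlap each other, and its peak of 4.38 in siFOXA1 list 2 lay at the 3′ end. RPS19BP1, which regulates SIRT1, had 7.33 in untransfected list 2 and 5.65 and 5.01 after siNT. RPL26, RPS14 and RPS19BP1 thus had siNT values no higher than 5.65. Of the 10 further members with FGFR1 in 1 siNT list, RPL5 had 5.33 after siNT and 5.63 after siFOXA1, each in list 2, and RPL3 had 5.64 in siNT list 2 and no siFOXA1 peak. RPL6 had 4.70 after siNT and 6.25 after siFOXA1, each in list 2 and at the end of its span beside PTPN11.

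**Figure D5:**
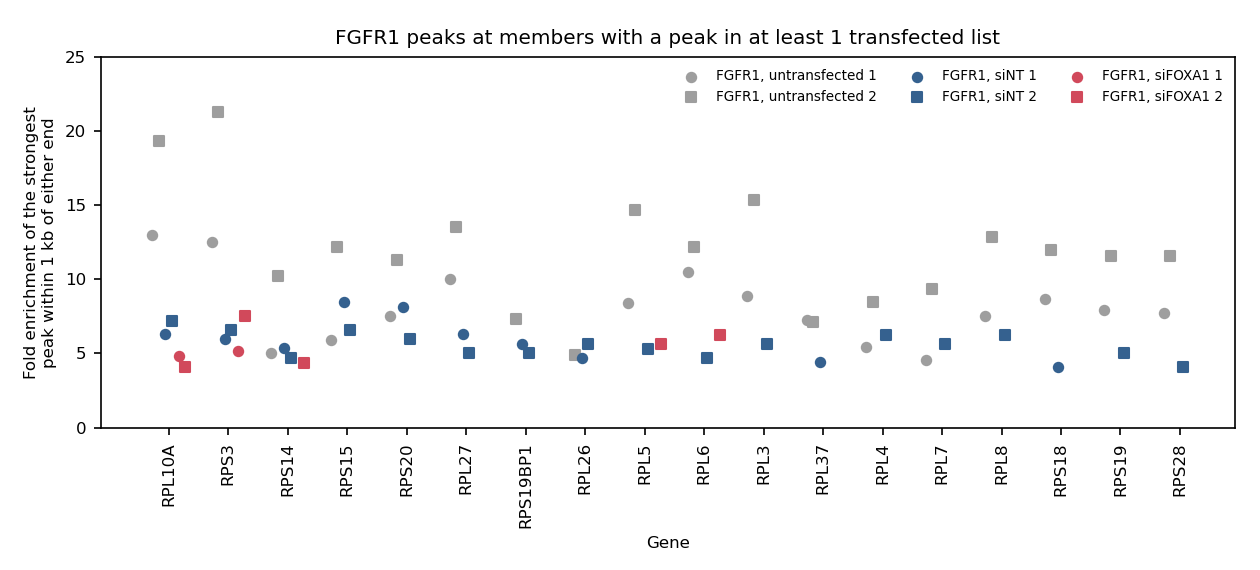
Fold enrichment of the strongest FGFR1 peak within 1 kb of either end in untransfected cells (grey), after siNT (blue) and after siFOXA1 (red), for 18 of the 19 members with a peak in at least 1 transfected list; circles are list 1, squares list 2, and a missing symbol means no peak. Red symbols stand at 5 genes, and only RPL10A and RPS3 have both.

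Of the 8 paralogues, 1 had FGFR1 within 1 kb of an end in both untransfected lists (12.5%, against 19.8% of all genes) and 6 in list 2 (against 41.2%). RPL22L1 and RPL39L had 6.22 each, RPS27L 5.77 and RPL36AL 5.55, all in list 2 only. The paralogue with both was RPL7L1, at 6.14 and 10.4, whose strongest peak lay nearer to PEX39; at its own start it had 5.0 and 8.66. RPL10L, a copy without introns used in testis, had no peak in any of the 14 lists, and RPL3L, the paralogue of muscle, had a peak in list 2 that lay nearer to MSRB1. RPL26L1 had no FGFR1 peak near either end of its span, but its annotated starts lie inside that span, and there it had FGFR1 at 5.46 and 6.66, H3K4me3 at 103 and 104 and Pol II S5P at 11.1 and 9.68. The read-through genes RPS10-NUDT3 and RPL36A-HNRNPH2 had the same strongest FGFR1 peaks as RPS10 and RPL36A and are no separate evidence. RPL17-C18orf32 had a peak of 6.0 in list 2 only, and RPL17 one of 6.44 in the same list, nearer to C18orf32.

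Of the ribosomal proteins outside the naming rule, RACK1, a scaffold on the small subunit, had FGFR1 at 5.69 and 8.88. FAU, a ubiquitin-like fusion, had 3.33 in list 2 only. Among 77 mitochondrial ribosomal protein genes, which are transcribed in the nucleus for a separate ribosome, 26 had FGFR1 in both untransfected lists (33.8%, against 19.8% of all genes), 6 in both siNT lists (7.79%, against 5.15%) and 3 in both siFOXA1 lists (3.90%, against 2.24%). Pol II S5P was in both lists at 62 of them (80.5%, against 38.8%). Of 20 translation factors and other genes with terminal oligopyrimidine mRNAs, 10 had FGFR1 in both untransfected lists, 3 in both siNT lists and 2 in both siFOXA1 lists. Of 45 ribosome biogenesis genes the numbers were 13 (28.9%), 3 (6.67%) and 2 (4.44%), against 19.8%, 5.15% and 2.24% of all genes. The core ribosomal protein genes, at 51 of 77 (66.2%), were above all 3 lists in untransfected cells, and no difference between lists was tested.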

How the data were processed

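The authors deposited a peak list per library, 14 in all, from ChIP-seq of CAMA1 cells. Per the submitters' processing notes, Bowtie2, SAMtools, Picard and MACS2 were used with the build hg38; versions and roles are not given in the sources used here. Each deposited row holds a summit, a fold enrichment (linear ratio to background) and -log10 values of p and q. The labels were followed where peak names differ from them (the replicate numbers of untransfected FGFR1, and FOXA2 in place of FOXA1). Outside Pol II S5P, where summit fragments were not derived, the deposited fold enrichments lay on a grid that gives summit fragments and a single background per list. No read totals were used, and the precision of a count rests on 2 lists per group.

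Peaks outside chromosomes 1 to 22 and X (0.0227% to 2.74% of rows) were left out. Peaks were scored at gene ends with Python 3.11.15, numpy 2.4.6 and pandas 2.3.3, keeping the peak of highest fold enrichment per gene. The scoring was tested on simulated data: 1000 of 1000 planted peaks within 1 kb were found, and 0 of 1000 beyond it. Starts and strands came from the RefSeq promoter table. No p-values were computed over members, which were chosen, like all lists here, with earlier results of these data known. Named genes were the 10 first by mean FGFR1 percentile, members with FGFR1 in both siNT or both siFOXA1 lists, core members with Pol II S5P and no FGFR1, the stalk genes, RPSA, RPS3, RPS6, RPL3, RPL5, RPL11, RPL10, RPL10A and RPL23, the paralogues as a group, and FAU and RACK1; others were named after their values were seen. Some genes are not reported here by name, though counts include them. Alternatives were windows of 500 bp and 3 kb, a -log10 q of at least 5, the summit in the window, FGFR1 lists of equal length, annotated starts, core members, overlapping peaks, each list left out, other gene backgrounds and ranks by -log10 p.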

Additional observations from a re-analysis of the deposited data

How the results depend on the processing

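The number of members with FGFR1 in both untransfected lists was 53, and 47 to 54 under the other windows, thresholds, list lengths, overlap, core and neighbour settings (39 of 70 at annotated starts); leaving out 1 list in turn gave 53 to 84. Without untransfected list 1 the count was 84, so that list sets it. After siNT the 9 members became 5 at a -log10 q of at least 5 and 19 with at least 1 list, and 11 to 17 leaving out 1 list. After siFOXA1 the 2 members became 0 at a -log10 q of at least 5, 1 with FGFR1 lists of equal length and 5 with at least 1 list, and 2 to 5 leaving out 1 list. The difference in share from all genes, 39.8 percentage points, was 31.2 against genes with H3K4me3 and 14.4 against genes with H3K4me3 and Pol II S5P. Of 70 alternative values 61 stayed within 1.5 times the reported count or within 1 SD of the 2 lists. Ranking by -log10 p gives the order by fold enrichment by construction, since both follow from summit fragments on 1 background per list, and is no check. No paired analysis was possible because the counts come from no test and the numbers of the lists only name them; by list number, siNT exceeded siFOXA1 by 9 and 12 members, against a mean of 10.5. The count without members nearer to another gene's end was chosen after seeing the data. The backgrounds of the transfected lists were lower, and how this bears on their counts was not tested. Their weakest peaks had 10 fragments, against 14 and 12 in the untransfected lists, and an uncalled promoter may still hold signal.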

Other observations

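The 4 core members on chromosome X were all called for FGFR1 in untransfected list 2 and in no other FGFR1 list, at fold enrichments of 5.55 (RPL10), 5.11 (RPL36A), 5.11 (RPL39) and 4.89 (RPS4X). On chromosomes 1 to 22, 51 of 73 core members had FGFR1 in both untransfected lists. Pol II S5P was in both lists at all 4, from 5.44 at RPL36A to 13.5 at RPL10. Over all X-linked genes, 13 of 848 had FGFR1 in both lists (1.53%), against 20.6% of genes on chromosomes 1 to 22, and 12.4% had it in list 2, against 42.5%. Among genes with H3K4me3 and Pol II S5P in both lists the shares were 5.94% of 101 and 47.8% of 7622 in both lists, and 55.4% and 89.1% in list 2. These genes were singled out after their values were seen.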
